A study of Mus musculus with 4 samples.

Results

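Sonic hedgehog signalling was followed through 9 genes, chosen by symbol: the ligand Shh, the receptor and inhibitor genes Ptch1 and Hhip, the co-receptor genes Gas1, Boc and Cdon, and the transcription factor genes Gli1, Gli2 and Gli3. All 9 had a row among the 32285 genes counted. The cells came from lungs of mouse embryos at embryonic day E16.5. Parents carried floxed Myrf (Myrf Fl/Fl), a tamoxifen-dependent Cre recombinase made from the Wt1 gene (Wt1creERT2) and the R26TdTomato reporter, and pregnant females received tamoxifen at E12.5. Cells that glowed with tdTomato and took up no DAPI were sorted, and transcript 3' ends were sequenced from droplets in 4 libraries, 2 of Myrf mutants and 2 of Cre controls. Mutants and controls thus shared the Cre, the reporter and the tamoxifen, and the labels do not spell out the Myrf alleles of the control embryos. Each genotype's cells came from 3 to 5 lungs combined, and whether a genotype's 2 libraries hold separate pools is not labelled, so p-values measure only the spread between these libraries. Wt1 drives the Cre in the mesothelium, the epithelial sheet on the lung surface, and the sorted cells are those in which Cre acted, with their descendants and whatever else passed the gate.

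Hedgehog ligands bind Ptch1, which otherwise holds the signal transducer Smo inactive. Freed Smo acts through the primary cilium to keep Gli2 and Gli3 from being cut into repressors, and the Gli activators then raise Gli1, Ptch1 and Hhip, which are the customary readouts of the pathway. Gas1, Boc and Cdon are membrane proteins that help the ligand reach Ptch1, and Hhip binds the ligand and removes it. In the developing lung the airway epithelium is the known source of Shh, and the surrounding mesenchyme and the mesothelium receive it.

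The promoters of 3 genes are shown because Ptch1 and Hhip carried most of the response signal in these cells, and Gli2 is the only gene of the set with a GLI core motif in its window. RefSeq promoter windows (GRCm38.p6) were at hand for 6 of the 9 genes. Each line gives the 250 bases before the RefSeq start on the minus strand, 5′ to 3′, with GC boxes (GGGCGG on either strand) and GLI cores (ACCACCC on either strand) in capitals.
Ptch1, chr13:63565736-63565985: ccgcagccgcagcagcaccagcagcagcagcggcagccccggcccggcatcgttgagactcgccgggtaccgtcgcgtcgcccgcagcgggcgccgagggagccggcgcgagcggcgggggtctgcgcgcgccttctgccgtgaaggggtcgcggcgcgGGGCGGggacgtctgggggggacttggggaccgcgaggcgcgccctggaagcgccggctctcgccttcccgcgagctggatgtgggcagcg
Hhip, chr8:80058009-80058258: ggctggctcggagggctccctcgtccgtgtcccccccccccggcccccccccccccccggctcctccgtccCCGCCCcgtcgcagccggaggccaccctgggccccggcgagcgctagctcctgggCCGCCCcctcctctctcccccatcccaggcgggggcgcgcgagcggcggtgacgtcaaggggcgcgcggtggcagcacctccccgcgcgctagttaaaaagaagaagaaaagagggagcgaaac
Gli2, chr1:119053620-119053869: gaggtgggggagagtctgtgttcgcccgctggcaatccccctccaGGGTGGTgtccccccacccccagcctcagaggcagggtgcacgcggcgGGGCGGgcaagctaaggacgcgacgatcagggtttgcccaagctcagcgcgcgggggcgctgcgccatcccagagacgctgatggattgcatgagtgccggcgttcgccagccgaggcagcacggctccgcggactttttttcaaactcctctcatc
The capitals in the Ptch1 line mark 1 GC box, those in the Hhip line mark 2, and those in the Gli2 line mark 1 GLI core followed by 1 GC box. The full GLI site GACCACCCA was in none of the 6 windows and in 0.225% of all 32851 windows of that length. The core ACCACCC, which is contained in the full site, was in 1 of 6 (3.92% of all windows). A GC box was in 5 of 6, all but Cdon, and in 32.7% of all windows. The Ptch1 window lies inside the gene span of GENCODE vM21 (chromosome 13, 63508328 to 63573598), upstream of an inner start. An absent match says only that these letters are not in this window.

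After filtering, the libraries held 281 and 3503 cells for controls 1 and 2, and 411 and 4275 for mutants 1 and 2, with 8175944 to 80666128 unique molecular identifiers (UMIs) in total and medians of 14313 to 38643 UMIs per cell. The libraries numbered 1 were thus small and deep, and those numbered 2 large and shallower. Any 2 libraries shared 0 to 5 cell barcodes. Levels are CPM, counts of a gene per 1e6 UMIs after summing over the cells of a library. A change is the fitted log2 of mutants relative to controls. It is given ± an approximate standard error, the size of the change divided by the square root of the edgeR F statistic. Intervals are 95% exact Poisson or binomial intervals and cover counting error only. Clusters were made without the hedgehog genes and named after fixed marker lists. Mesothelial-like cells (clusters 5 and 11, all 10 listed markers in each) made up 39.5% and 20.7% of the controls and 0.487% and 0.0702% of the mutants. In control library 2, 2047 of 3503 cells lay in cluster 1, which held 7 of the 10 mesothelial markers but stayed unnamed as mixed, since most markers of all lists lay close to the rest of its library. It is not in the mesothelial-like share. Clusters 2 (led by Des) and 7 (led by Calb1 and Actc1) held smooth muscle and striated muscle markers together and stayed unnamed. They are called the Des-led and Actc1-led clusters. Of 1576 Des-led cells, 237 came from mutant library 1 and 1318 from mutant library 2, and of 259 Actc1-led cells 28 and 225. Myrf, the targeted gene, measured 76.0 and 48.6 CPM in the control libraries against 19.1 and 7.20 CPM in the mutant libraries, and Wt1 at 82.1 and 78.1 against 25.1 and 13.7 CPM. The floxed exons are not given in the sources used here and the tags lie at transcript ends, so the Myrf level does not check the deletion.

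Shh, the ligand (ENSMUSG00000002633, mm10 chromosome 5, 28456815 to 28467256), was read mainly from the epithelial-like cluster 8. That cluster held 71.4, 76.8, 97.3 and 84.1% of all Shh UMIs in control libraries 1 and 2 and mutant libraries 1 and 2. Within it, Shh stood at 45.4 CPM (interval 21.8 to 83.5, 10 UMIs) and 93.6 (77.5 to 112) in controls, and at 77.5 (66.5 to 89.7) and 62.5 (52.3 to 74.1) in mutants. The 2 mutant values lay between the 2 control values. In fibroblast-like clusters 3 and 4 the level was at most 0.409 CPM in any library, and none of the 103 mesothelial-like cells of cluster 5 in control library 1 held a Shh UMI. In controls it stood at 5.31 ± 5.87 CPM (SD, n = 2) in mixed cluster 1 and at 3.42 ± 4.84 in pericyte-like cluster 12. Both SDs exceeded the means and cells were few, with 16 in cluster 1 of control library 1. Cluster 12 held 11 and 10 cells of controls 1 and 2, so these levels were not well set. The Actc1-led cluster of the mutants had 2.46 ± 1.33 CPM. The other ligand genes, Ihh and Dhh, had at most 2 and 12 UMIs in any whole library.

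Over all sorted cells Shh measured 1.71 and 2.67 CPM in the control libraries against 8.76 and 1.95 CPM in the mutant libraries. Mutant library 1 was high and the other 3 libraries were close together. The log2 change of 1.17 ± 0.69 did not pass (edgeR adjusted p = 0.831), and without mutant replicate 1 it was -0.030. Without mutant replicate 2 it was 1.82, with 1 library left in the group. The summed CPM of the 8 epithelial markers moved with it, at 138 and 761 in controls and 1963 and 736 in mutants. Outside the epithelial-like cluster the gene was too sparse to compare. The epithelial-like cells of control library 1 stood apart: their median was 6080 UMIs per cell, against 20051 to 38719 in the other 3 libraries, and their epithelial markers summed to 1966 CPM against 17071 to 27568.

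Ptch1 encodes the hedgehog receptor and is also a target (ENSMUSG00000021466). Over all sorted cells it measured 493 and 269 CPM in the control libraries against 303 and 200 CPM in the mutant libraries. Control library 2 lay below mutant library 1, so the groups overlapped, and the log2 change of -0.53 ± 0.34 did not pass (edgeR adjusted p = 0.89). Hhip, the ligand-binding inhibitor (ENSMUSG00000064325, chromosome 8, 79965851 to 80058006), measured 969 and 576 CPM in the control libraries against 503.8 and 190 CPM in the mutant libraries. Both mutant libraries lay below both controls, but the 2 mutants were 2.66-fold apart. Its log2 change of -1.12 ± 0.47 did not pass (edgeR adjusted p = 0.588). Without mutant replicate 1 it was -1.78 and passed (edgeR adjusted p = 0.0415). Gli1, the transcription factor that reports pathway activity (ENSMUSG00000025407, chromosome 10, 127329882 to 127341974), measured 93.2 and 55.4 CPM in the control libraries against 44.1 and 28.5 CPM in the mutant libraries. Both mutants were again below both controls, with a log2 change of -0.96 ± 0.28 that did not pass (edgeR adjusted p = 0.337). Without mutant replicate 1 it was -1.12 and passed (edgeR adjusted p = 0.0249). In the fit without that replicate 1159 of all genes passed. Without mutant replicate 2 Hhip was at -0.68 and Gli1 at -0.82, and neither passed.

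Of the co-receptors, Gas1 showed the widest gap between the genotypes. Gas1 (ENSMUSG00000052957, chromosome 13, 60174405 to 60177365) measured 241 and 193 CPM in the control libraries against 95.1 and 81.1 CPM in the mutant libraries. The groups were far apart compared with the spread within them, and the log2 change was -1.22 ± 0.25 (edgeR adjusted p = 0.167). The call depended on the method: DESeq2 called Gas1 (adjusted p = 0.0043), as did edgeR without a filter on low counts (adjusted p = 0.0317). Cdon (ENSMUSG00000038119) measured 52.0 and 39.4 CPM in the control libraries against 49.8 and 17.0 CPM in the mutant libraries. Only mutant library 2 was low, the log2 change was -0.44 ± 0.41 (edgeR adjusted p = 0.974), and without mutant replicate 1 it was -1.18 and passed (edgeR adjusted p = 0.00747), while without mutant replicate 2 it was 0.051. Boc (ENSMUSG00000022687) stood at 47.0 and 40.8 CPM against 45.6 and 34.7 CPM, with overlapping groups.

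The 2 transcription factors that act first, Gli2 and Gli3, were near level. Gli2 (ENSMUSG00000048402) measured 22.3 and 18.9 CPM in the control libraries against 21.5 and 17.3 CPM in the mutant libraries, a log2 change of -0.02 ± 0.21. Gli3 (ENSMUSG00000021318), the main source of the repressor form, stood at 49.9 and 46.1 CPM against 50.6 and 59.3 CPM, a log2 change of 0.29 ± 0.26 (edgeR adjusted p = 0.972). Both mutants lay above both controls, by less than 1 CPM in mutant library 1.

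None of the 9 genes passed the edgeR test over all sorted cells (Benjamini-Hochberg adjusted p under 0.05 over 16242 genes), where 0.302% of all genes passed, 0.289% lower and 0.0123% higher in mutants. At an unadjusted p under 0.05 there were 2 of 9, Gas1 and Gli1, beside 1415 of all 16242 genes. With DESeq2 1 of 9 passed, Gas1, beside 495 of all genes. Both mutant libraries lay below both controls for 3 of 9, Hhip, Gli1 and Gas1, against 17.9% of all genes, and above for 1 of 9, Gli3, against 12.6%. The members' median log2 change was -0.44, beside 0.026 over all genes tested.

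**Figure D1:**
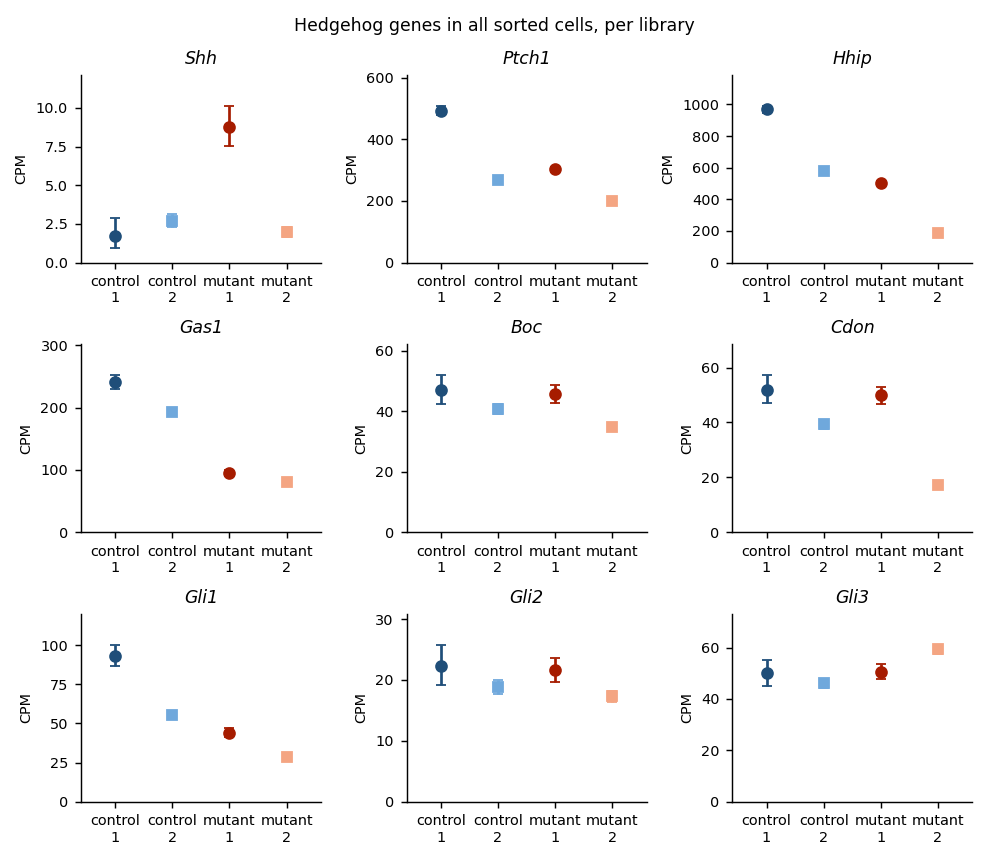
CPM of each hedgehog gene over all sorted cells of each library, with 95% Poisson intervals (counting error only), on linear axes from 0. Gas1 stood at 193 CPM or more in both controls and at 95.1 CPM or less in both mutants, and Shh was high in mutant library 1 alone.

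Levels by cluster are a description, since clusters were made from the expression of the same cells. In controls, Hhip was highest in the smooth muscle-like cluster 6, at 1512 ± 158 CPM (SD, n = 2), and in mesothelial-like cluster 5, at 1349 ± 262 CPM, 2 values within their spread. The mixed cluster 1 came next, with 1538 CPM in the 16 cells of control library 1 and 420 CPM in the 2047 of control library 2. Hhip was at 202 ± 74.4 in fibroblast-like cluster 4 (led by Lef1 and Pdgfra) and 156 ± 77.5 in fibroblast-like cluster 3 (led by Smim41 and Tcf21). Ptch1 was flatter: 528 ± 116 in cluster 6, 487 ± 133 in cluster 4, 471 ± 113 in cluster 5, 397 ± 290 in mixed cluster 1 and 364 ± 111 in cluster 3, none of these neighbours differing beyond their spread. Gli1 was at 109 ± 33.8, 91.3 ± 24.3, 85.6 ± 19.0 and 82.3 ± 33.2 CPM for clusters 6, 4, 5 and 3. Smooth muscle-like, mesothelial-like and fibroblast-like cells thus all carried the 3 target genes, and the epithelial-like cells, which carried the ligand, had 95.5 ± 6.14 CPM of Ptch1.

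The second mesothelial-like cluster, 11 (led by Aqp5, Col6a5 and Igfbp3; 8 and 69 control cells), had low targets and high Gas1 and Cdon. Ptch1 stood there at 44.8 and 52.3 CPM in controls 1 and 2, Hhip at 93.0 and 136, and Gli1 at 13.8 and 18.5. In cluster 5 the same libraries had 551 and 390 CPM of Ptch1, 1534 and 1164 of Hhip and 99.1 and 72.2 of Gli1. Gas1, in contrast, was at 444 and 350 CPM in cluster 11 and 386 and 315 in cluster 5, and Cdon at 200 and 118 against 84.7 and 68.8. Boc was at 44.4 ± 5.36 CPM in cluster 11 and 45.6 ± 0.695 CPM in cluster 5. The fibroblast-like cluster 9 (led by Ntrk2, Agtr2 and Dpt; 70 cells of control library 2) was of the same kind, with 30.6 CPM of Ptch1, 36.3 of Hhip, 19.9 of Gli1, 616 of Gas1 and 119 of Cdon. Its 14 cells of mutant library 2 had 4.86 CPM of Ptch1 (1 UMI), 505 of Gas1 and 102 of Cdon, and no Hhip UMI. Cluster 9 had no cell of control library 1 and 1 cell of mutant library 1, so it was seen mainly in 2 libraries.

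Among clusters 3, 4, 5 and 6 of the controls, Cdon and Gas1 separated the cells more sharply than Boc, the other co-receptor. Cdon stood at 76.7 ± 11.2 CPM in cluster 5 of the controls, 22.9 ± 5.49 in cluster 6, and 3.06 ± 1.12 and 2.40 ± 0.18 in fibroblast-like clusters 4 and 3. Gas1 followed the order 351 ± 50.2, 129 ± 26.6, 62.4 ± 7.69 and 79.3 ± 11.8 CPM for clusters 5, 6, 4 and 3. Boc varied little between these 4 clusters, from 45.6 ± 0.695 to 57.9 ± 1.69 CPM, and Gli2 ranged from 21.1 ± 8.97 to 27.4 ± 5.82 CPM. In the epithelial-like cluster 8 of the controls Boc was at 6.11 ± 4.20 CPM (2 and 4 UMIs), beside 53.0 ± 47.1 for Gas1 and 33.3 ± 17.1 for Cdon. Gas1 was at 86.3 and 19.7 CPM in controls 1 and 2. The epithelial-like cells of control library 1 stood apart, as described above. Among clusters 3, 4, 5 and 6 of the controls Gli3 ran the other way from Cdon. It was at 86.6 ± 17.5 and 72.5 ± 5.71 CPM in fibroblast-like clusters 3 and 4, and 31.3 ± 1.33 CPM in mesothelial-like cluster 5. Mesothelial-like cluster 11 did not follow this order, with 159 ± 57.6 CPM of Cdon and 50.0 ± 7.18 CPM of Gli3 in controls.

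**Figure D2:**
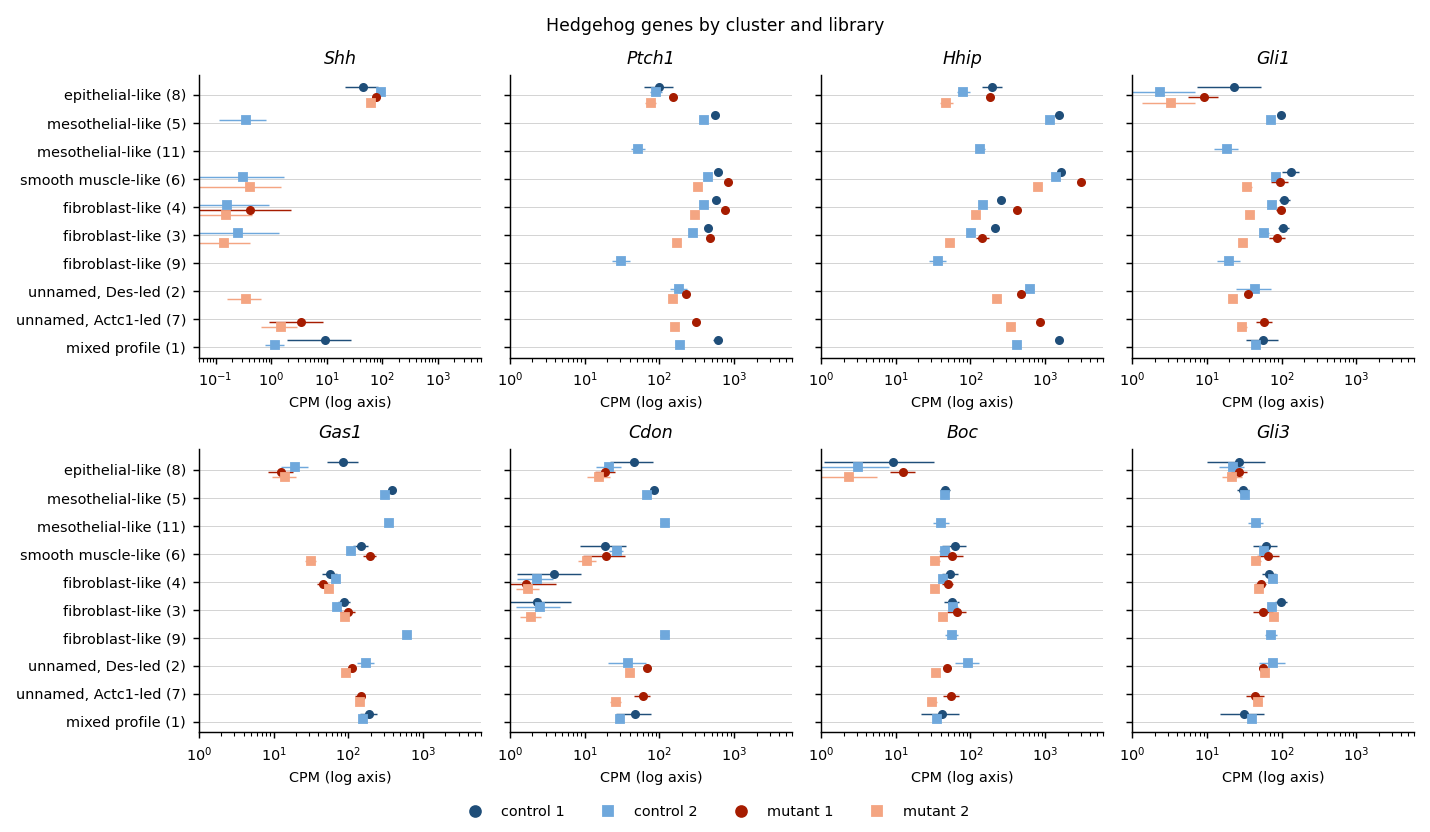
CPM of 8 hedgehog genes (log axes) in each cluster and library with at least 15 cells, with 95% Poisson intervals; levels of 0 are not drawn. Shh lies at 45.4 to 93.6 CPM in the epithelial-like cluster and at 0.42 CPM or less in clusters 3 to 6, while Ptch1 and Hhip drop in mesothelial-like cluster 11 and fibroblast-like cluster 9.

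The clusters made almost only of mutant cells carried the receptors and targets too. In the Des-led cluster, mutants 1 and 2 had 224 and 152 CPM of Ptch1, 482 and 230 of Hhip and 35.7 and 22.2 of Gli1. Gas1 stood there at 113 and 93.4 CPM, Cdon at 68.2 and 40.6 CPM and Gli3 at 55.8 and 59.3 CPM. Both Gas1 levels and both Hhip levels were below those of mesothelial-like cluster 5 in either control library. Cdon in mutant library 1 was level with cluster 5 of control library 2 (68.2 against 68.8 CPM), and only in mutant library 2 clearly below it. The Actc1-led cluster had 312 and 164 CPM of Ptch1, 841 and 350 of Hhip and 146 and 144 of Gas1. Mesothelial markers summed to 198 and 202 CPM in the Des-led cluster of the mutants, with Muc16 at 0 in mutant library 1. Their part in the levels was not tested.

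The share of each gene's UMIs by cluster was then counted in each genotype. Mesothelial-like cluster 5 held 73.9 and 49.6% of the Hhip UMIs and 74.9 and 40.1% of the Gas1 UMIs of controls 1 and 2, and under 1% of either in mutants. The Des-led cluster held 58.6 and 38.6% of the Hhip UMIs and 72.7 and 36.7% of the Gas1 UMIs of mutants 1 and 2. For Cdon it held 83.9 and 75.9% in mutants, where cluster 5 held 76.0 and 42.9% in controls. In sums over sorted cells, fewer cells of a type and less RNA per cell cannot be told apart. The 10 mesothelial markers summed to 2093 and 1653 CPM in controls and to 176 and 84.8 CPM in mutants.

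**Figure D3:**
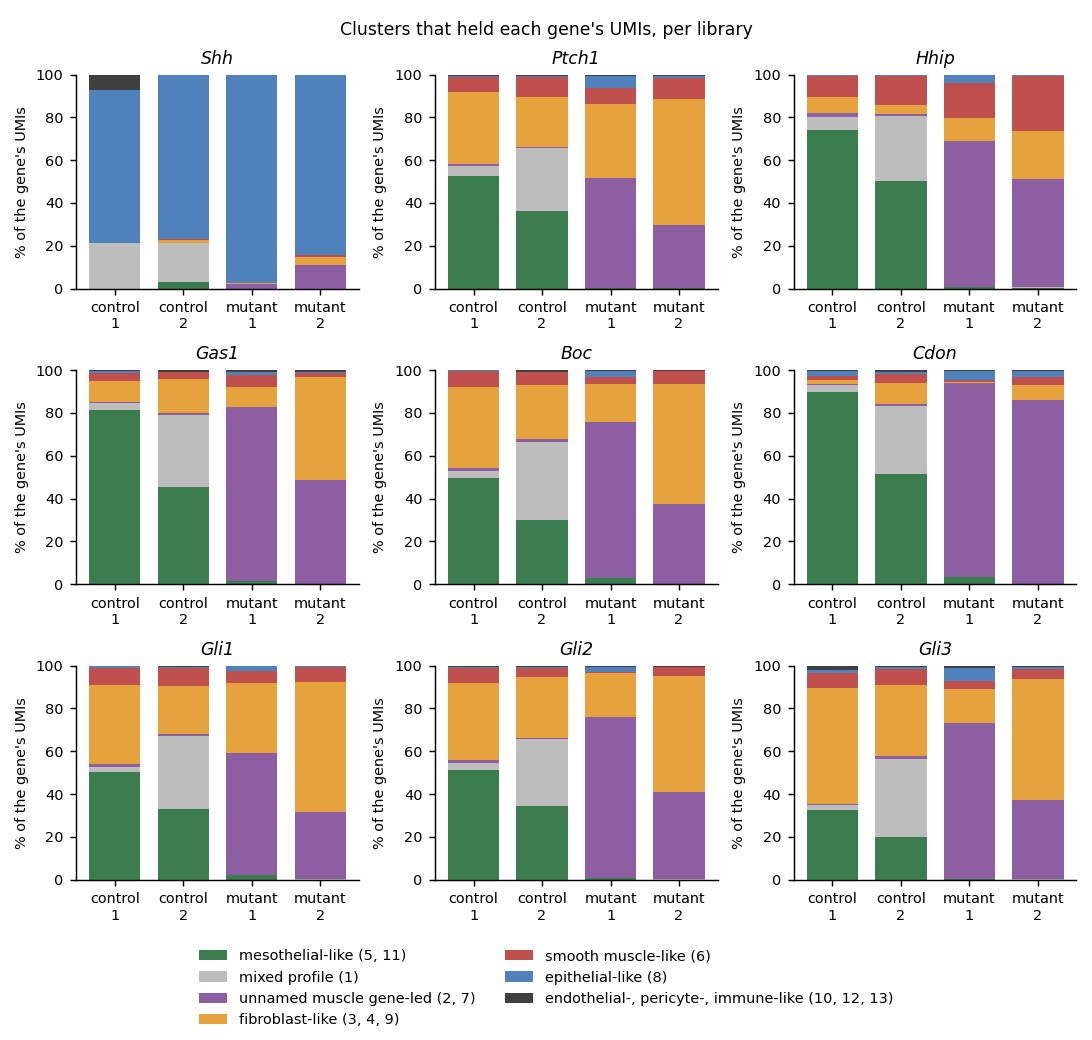
Share (percent) of each gene's UMIs that lay in each group of clusters, by library; bars sum to 100%. Mesothelial-like cells hold most of the Hhip, Gas1 and Cdon UMIs in control library 1, and the muscle gene-led clusters hold most of the Cdon UMIs in both mutants.

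The comparison was repeated after seeing the data on the sorted cells outside the mixed and mesothelial-like clusters (154, 730, 408 and 4266 cells). These cells still differed in kind by genotype. The Des-led cluster gave 2 and 19 of them in controls 1 and 2, and 237 and 1318 in mutants 1 and 2. In those mutants it had 35.7 and 22.2 CPM of Gli1 and 68.2 and 40.6 CPM of Cdon. Its part in the changes below was not tested. Gas1 then measured 81.5 and 131 CPM in the control libraries against 94.4 and 81.1 CPM in the mutant libraries, a log2 change of -0.20 ± 0.29. Hhip stood at 414 and 361 against 504.2 and 189 CPM, a change of -0.14 ± 0.41. Cdon stood at 7.73 and 21.3 against 48.5 and 17.0 CPM, a change of 1.12 ± 0.57, the opposite sign to that over all sorted cells. Gli1 kept the gap, at 96.5 and 59.2 against 43.5 and 28.6 CPM and a change of -1.04 ± 0.29, and Ptch1 stood at 460 and 299 against 304 and 200 CPM, a change of -0.52 ± 0.31. No hedgehog gene, and 0 of all genes, passed in that fit (edgeR adjusted p = 0.549 for Gli1; 931 genes had an unadjusted p under 0.05), and no DESeq2 fit was run on these cells.

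Within mesenchymal-like cells (fibroblast-, smooth muscle- and pericyte-like clusters) and within fibroblast-like cells, no hedgehog gene passed. The background was 0% of 13006 and 0% of 12484 genes with edgeR, with 276 and 270 genes at an unadjusted p under 0.05 and 8 and 6 calls by DESeq2, none a hedgehog gene. In fibroblast-like cells Ptch1 measured 512 and 304 CPM in the control libraries against 684 and 231 CPM in the mutant libraries. The controls lay between the mutants. Hhip did the same, at 233 and 117 against 356 and 83.8 CPM, and Gli1 stood at 107 and 61 against 93.7 and 34.0 CPM. Log2 changes were 0.17 ± 0.46 for Ptch1, 0.32 ± 0.57 for Hhip and -0.40 ± 0.42 for Gli1. Both mutants lay below both controls for Gli3, at 83.9 and 75.2 against 53.4 and 65.5 CPM (log2 change -0.30 ± 0.27), and for Cdon, at 3.05 and 19.6 against 1.25 and 2.33 CPM. These were 2 of the 8 members tested, beside 14% of all genes, and none lay above (8.34% of all genes). In mesenchymal-like cells 3 of 8 lay below, Cdon, Gli3 and Gas1 (14.5% of all genes), and none above (7.85%). Of the 496 fibroblast-like cells of control library 2, 70 lay in cluster 9, where Cdon was at 119 CPM. Without control replicate 1, the other library of that group, the log2 change of Cdon was -3.11. Gas1 in control library 2 was at 150 CPM in all fibroblast-like cells, beside 70.9 and 67.8 CPM in clusters 3 and 4. The part of cluster 9 in the Gas1 and Cdon changes was not tested. Without mutant replicate 1, Gli1 was at -1.01 in fibroblast-like cells and passed (edgeR adjusted p = 0.0245), as it did in mesenchymal-like cells at -1.03 (adjusted p = 0.00971); 484 and 944 of all genes passed in those fits. Without mutant replicate 2 Gli1 was at 0.092 and 0.029 and did not pass. Hhip in mesenchymal-like cells was at 0.13 ± 0.55 with 4 libraries, and at -1.06 without mutant replicate 1, past the threshold (edgeR adjusted p = 0.0287), while without mutant replicate 2 it was 0.79 and did not pass.

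Single clusters were fitted next. In fibroblast-like cluster 3 Gli1 measured 106 and 58.8 CPM in the control libraries against 87.4 and 30.4 CPM in the mutant libraries. It stood in cluster 4 at 108 and 74.1 against 96.8 and 38.0 CPM, and in smooth muscle-like cluster 6 at 133 and 85.2 against 94.6 and 34.4 CPM. The groups overlapped each time, because mutant library 1 lay above control library 2. Gli1 passed in each of the 3 without mutant replicate 1, at -1.18, -0.97 and -1.34 (edgeR adjusted p = 0.00253, 0.003 and 0.0295), where 484, 693 and 215 genes passed. Without mutant replicate 2 its values were 0.028, 0.041 and -0.20, and none passed. Hhip in cluster 6 measured 1624 and 1400 CPM in the control libraries against 3014 and 814 CPM in the mutant libraries, the controls again between the mutants. In cluster 3 it stood at 211 and 101 against 144 and 52.5 CPM and passed without mutant replicate 1, at -1.34 (edgeR adjusted p = 0.0018). In cluster 4 it stood at 255 and 149 against 424 and 119 CPM. The log2 change there was 1.01 without mutant replicate 2 and -0.48 without mutant replicate 1. The share of all genes that passed with 4 libraries was 0% in clusters 3, 4 and 6 (177, 214 and 106 genes at an unadjusted p under 0.05, DESeq2 not run).

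Gas1 had log2 changes of 0.34 ± 0.29 in fibroblast-like cluster 3 and -0.20 ± 0.28 in cluster 4, neither past the threshold, and the latter was 0.058 without mutant replicate 1. In cluster 3 both mutants lay above both controls, at 98.5 and 91.1 against 87.7 and 70.9 CPM, where 8.35% of all genes did. In cluster 4 both Gas1 values lay below, at 45.8 and 55.7 against 56.9 and 67.8 CPM, where 13.5% of all genes did, as did Gli3; no member lay above in cluster 4 (7.37% of all genes). In cluster 6 only Gli2 lay below, at 27.4 and 14.8 against 5.25 and 11.3 CPM (16.2% of all genes), and none above (6.96%). In cluster 6 Gas1 measured 148 and 110 CPM in the control libraries against 194 and 31.5 CPM in the mutant libraries, and without mutant replicate 1 the change was -1.74 and passed (edgeR adjusted p = 0.00238), while without mutant replicate 2 it was 0.57 and did not. In the epithelial-like cluster 8 Gas1 stood at 86.3 and 19.7 against 12.6 and 14.2 CPM, and without control replicate 2 the change was -2.90, resting on control library 1. With all 4 libraries no member passed there, beside 0.00991% of all genes, all of that share higher in mutants. Gas1 and Cdon had both mutants below both controls there (8.82% of all genes) and no member had both above (18.5%). Mesothelial markers summed to 704 CPM in that library's epithelial-like cells, against 346, 257 and 134 in control library 2 and mutants 1 and 2. Mesothelial marker sums moved with genotype in the other clusters as well: 26.5 and 65.9 CPM in controls against 18 and 15.7 in mutants for cluster 3, 20.8 and 51.6 against 12.3 and 7.50 for cluster 4, and 19.0 and 77.8 against 8.76 and 2.94 for cluster 6. Of the 10 markers, 7 were at 0 in mutant library 1 in cluster 3. Their part in the members' levels was not tested.

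Ptch1, Hhip and Gli1 also differed between the 2 libraries of a genotype. Ptch1 was higher in library 1 than in library 2 in all 6 clusters of the controls and all 6 of the mutants with at least 15 cells in both, by 1.10- to 3.15-fold in controls and 1.48- to 2.76-fold in mutants. Hhip was higher in all 6 and all 6, by 1.16- to 3.66-fold and 2.10- to 3.89-fold, and Gli1 in all 5 and all 6, by 1.25- to 1.80-fold and 1.61- to 2.87-fold. In clusters 3, 4 and 6 of the mutants Ptch1 was 2.76-, 2.53- and 2.49-fold higher in library 1. Over all genes with at least 20 CPM the median ratio in these clusters was 1.15 to 1.18, and 9.13, 6.38 and 12.6% of genes exceeded 2-fold. Of these genes 62.1, 66.7 and 62.5% were higher in library 1. In clusters 3, 4 and 6 of the controls the median ratio was 0.971 to 1.03. There 44.7, 51.0 and 53.8% of genes were higher in library 1, and 0.428, 0.492 and 1.36% exceeded 2-fold. The counts for the other members stand beside these shares of all genes. Boc was higher in library 1 in 4 of 5 clusters of the controls and 6 of 6 of the mutants (1.43- to 5.33-fold). Gli2 was higher in 3 of 5 and 4 of 4, Cdon in 4 of 5 and 4 of 5, and Gas1 in 5 of 6 and 4 of 6. Gli3 was higher in library 1 in 3 of 6 clusters of either genotype. The same libraries also differed in cell number and in depth per cell, whose part was not tested. Neither the libraries nor the numbers are labelled as a batch.

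By the share of cells with a UMI, Hhip was again higher in smooth muscle-like cells than in fibroblast-like cluster 3. The order of the libraries within smooth muscle-like cells was not that of their CPM. With each cell thinned to 5000 UMIs, 94.1, 92.6, 91.7 and 89.8% of smooth muscle-like cells of control libraries 1 and 2 and mutant libraries 1 and 2 held Hhip, and 43.9, 28.1, 34.6 and 17.8% of cells of fibroblast-like cluster 3. Unthinned shares were 100, 98.0, 92.0 and 98.0% and 60.5, 51.5, 57.1 and 36.7%, at medians of 14064 to 31758 UMIs. As a background, endothelial-like cells, which should lack the gene, had 7.69% in mutant library 2 (26 thinned cells; 4.26% of 47 unthinned, median 5711 UMIs). Their 9 and 12 thinned cells in control libraries 1 and 2 gave 33.3 and 8.33% (35.7 and 38.5% unthinned), and with so few cells the background in controls was not well set.

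Members whose levels ran together were described over 19 sums (each a library and named cluster with at least 20 cells; the points share libraries and depth). Pearson's r of log2(CPM + 1) was 0.87 for Ptch1 with Gli1, 0.78 for Hhip with Gli1 and 0.77 for Ptch1 with Hhip. For Boc it was 0.87 with Gli2, 0.84 with Gli1 and 0.83 with Gli3, and for Gas1 0.65 with Boc and 0.62 with Cdon. For Ptch1 with Gas1 and with Cdon it was 0.068 and -0.24, and for Gli3 with Cdon -0.23. Among 6682 genes the nearest to Ptch1 were Tada1, Tnfrsf19 and Nrep (0.92, 0.92 and 0.90), those to Hhip Tmtc1, Ltbp3 and BC005561 (0.93, 0.91 and 0.91), and those to Gli1 Guf1, Prr12 and Cdc37l1 (0.93, 0.93 and 0.93). Nearest to Gas1 were Fosb, Col3a1 and Col1a1 (0.93, 0.93 and 0.91), to Cdon Acadm, Usp53 and Celf4 (0.93, 0.90 and 0.90), and to Boc Mxra8, Col6a3 and Arhgef25 (0.97, 0.95 and 0.95). Nearest to Gli2 were Cdh11, Svep1 and Cdc16 (0.93, 0.91 and 0.91), and to Gli3 Senp6, Gfra2 and Rbpj (0.87, 0.86 and 0.86).

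The rest of the pathway was read from a list of 37 further genes, of which 35 were tested over all sorted cells. None passed the edgeR test, 18 were lower and 17 higher, and their median log2 change was -0.0038. The 6 with the smallest p are named. Myocd, which encodes a coactivator of smooth muscle genes, measured 20.2 and 23 CPM in the control libraries against 63.4 and 34.4 CPM in the mutant libraries, a log2 change of 1.19 ± 0.29 (edgeR adjusted p = 0.25). It passed with DESeq2 (adjusted p = 0.0322) and without a filter on low counts (edgeR adjusted p = 0.0091), and without mutant replicate 2 its change was 1.45. Smooth muscle markers moved with it, at 735 and 1014 summed CPM in controls and 5568 and 2608 in mutants. Ccnd1 (cyclin D1) was at 0.76 ± 0.30, with both mutants above both controls, and Foxl1, a forkhead factor of mesenchyme, at -0.82 ± 0.32. Smo, the signal transducer, measured 114 and 81.7 CPM in the control libraries against 72.1 and 56.2 CPM in the mutant libraries, a change of -0.53 ± 0.23. In the controls Smo had 156 and 131 CPM in mesothelial-like cluster 5 against 78.6 and 82.8 CPM in cluster 3. Kif7, the ciliary kinesin that regulates Gli processing, was at -0.70 ± 0.31, and the kinase gene Ulk3 at -0.90 ± 0.38. By role, 2 of 12 intracellular regulators, 2 of 7 cilium genes and 1 of 5 genes of ligand release had both mutants below both controls, as had 4 of 9 other response genes, beside 17.9% of all genes. Both mutants lay above both controls for 1 of the 7 cilium genes and 2 of the 9 other response genes, and for none of the regulators or release genes, beside 12.6% of all genes.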

How the data were processed

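Sorted tdTomato-positive cells were measured by 10x Chromium 3' V3 sequencing in 4 libraries. The deposited values are whole-number UMI counts per gene and barcode with no normalization, made by the authors with Cell Ranger 6.0.2 on mm10, per the submitters' processing notes; the annotation release, the use of strand and the settings for calling cells are not given in the sources used here. Sample titles gave each library's group and number. Of 32285 gene IDs, 32235 matched GENCODE vM21, which gave the gene spans (mm10, 1-based).

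Barcodes needed at least 1000 genes and at most 15% mitochondrial UMIs, which 32.5, 9.12, 15.6 and 5.92% failed (controls 1 and 2, mutants 1 and 2, here and below). Scrublet's automatic threshold marked 7 of 8733 barcodes and did not work, so the top-scoring barcodes were removed at 0.8% per 1000 barcodes (1, 104, 1 and 157), leaving 8470 cells. Variable genes were chosen in scanpy 1.11.5 (3000 genes without the hedgehog and cell cycle genes), with the library number as batch key. Each gene's mean over the cells of libraries of the same number was then subtracted. This treats the number as a batch, which the labels do not say. Clustering used scikit-learn 1.9.0 (30 components, 15 neighbours) and igraph 0.11.9 (Leiden resolution 0.4), giving 13 clusters. A cluster took the name of the list with the most markers in at least 10% of its cells and 2-fold above the other clusters, with at least 3. It stayed unnamed where another list had as many, where its leading genes held more of another list, or as mixed where 66% of markers lay within 2-fold of the rest of its library; these exceptions were chosen after seeing the data, here or in an earlier analysis.

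UMIs were summed per library and tested with edgeR 4.0.16 in R 4.3.3 (filterByExpr, TMM, quasi-likelihood, two-sided, Benjamini-Hochberg over all genes tested); DESeq2 1.42.0 was an alternative. Single clusters needed 20 cells in every library; clusters 6 and 8 were tested with a minimum of 15, a choice made after seeing the data. Fits that leave out a replicate assume that the lone library varies like the others. The edgeR fits with all libraries were tested on simulated counts. Clustering, naming and the fits that leave out a replicate were not. Replicate libraries were not repeats of each other (chi-square over degrees of freedom 97.2 and 203). The hedgehog genes, the pathway and marker lists and the naming rule were chosen with earlier results of these data known. The text names the 9 genes always, Myrf and Wt1 as a check, up to 6 pathway genes with the smallest p, and the 3 genes most correlated with each member. Alternatives were another normalization, test, filter, cell filter, doublet handling and clustering, a replicate block, each replicate left out, and sums thinned to 1 depth.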

Additional observations from a re-analysis of the deposited data

Results flagged for a closer look

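Gas1 was the only hedgehog gene for which both mutant libraries lay above both controls in 1 cluster and below both controls in another. Its log2 change was 0.34 ± 0.29 in fibroblast-like cluster 3 and -0.20 ± 0.28 in fibroblast-like cluster 4, a difference of 0.54, and the latter was 0.058 without mutant replicate 1. Against the epithelial-like cluster 8, where it was -1.80 ± 0.66, the difference was 2.15. Neither difference was tested, and neither change passed within its cluster by edgeR. The epithelial-like value rests on control library 1, whose epithelial-like cells held 704 CPM of mesothelial markers, against 134 to 346 CPM in the other 3 libraries.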

How the results depend on the processing

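Counts of genes that passed moved most. Over all sorted cells 49 genes passed by edgeR, 495 by DESeq2, 733 without a filter on low counts and 0 without the mixed and mesothelial-like clusters. In mesenchymal-like cells the counts were 8 by DESeq2, 102 without the filter and 1 at clustering resolution 0.8, and in fibroblast-like cells 6 by DESeq2 and 109 without the filter, against 0. Leaving out 1 replicate gave 34 to 1159, 0 to 944, 24 to 484, 0 to 484, 7 to 693, 2 to 215 and 4 to 97 genes for all sorted, mesenchymal-like and fibroblast-like cells and clusters 3, 4, 6 and 8. The highest count was without mutant replicate 1 in all but cluster 8, where it was without control replicate 2. Same-numbered libraries deviated together (r = 0.358, 0.348 and 0.297 across genes in all sorted, mesenchymal-like and fibroblast-like cells), but nothing in the labels pairs them and there are 2 pairs, so they share only a number. With the replicate number as a block, the counts were 478, 30, 8, 29, 95, 45 and 94 in the same order, Gas1, Gli1 and Hhip passed over all sorted cells (edgeR adjusted p = 0.0154, 0.0368 and 0.0324), and the log2 change turned to -0.15 for Hhip in mesenchymal-like cells and -0.11 for Boc in cluster 8. Log2 changes changed sign as follows. Without the mixed and mesothelial-like clusters they were Wt1 0.58, Cdon 1.12, Ulk3 0.59, Gli3 -0.20, Myrf 0.80 in all sorted cells. With doublets kept they were Gli2 0.021, Hhip -0.50, Cdon 0.94, Ptch1 -0.62 in mesenchymal-like cells and Gli2 0.055, Hhip -0.57 in fibroblast-like cells, and at resolution 0.8 Gli2 0.021, Hhip -0.59, Cdon 1.03, Ptch1 -0.70 in mesenchymal-like cells and Gli2 0.12, Hhip -0.57, Ptch1 -0.022 in fibroblast-like cells; in both settings the Lef1-led cluster had too few fibroblast markers for a name and the Des-led cluster (1595 and 1251 cells, mostly of mutants) was named smooth muscle-like, so the mesenchymal-like class held it. Gli2 in all sorted cells was 0.00086 with RLE normalization and 0.00094 with DESeq2. Where leaving out 1 replicate turned a direction, the values ran over these ranges. In all sorted cells they were -1.18 to 0.051 for Cdon, -0.015 to 0.53 for Gli3, -0.030 to 1.82 for Shh. In mesenchymal-like cells they were -1.03 to 0.029 for Gli1, -0.53 to 0.075 for Gli3, -1.06 to 0.79 for Hhip, -0.50 to 0.65 for Ptch1. In fibroblast-like cells they were -1.06 to 0.032 for Gas1, -1.01 to 0.092 for Gli1, -0.21 to 0.076 for Gli2, -0.77 to 0.95 for Hhip, -0.54 to 0.66 for Ptch1. In cluster 3 they were -0.23 to 0.065 for Boc, -1.18 to 0.028 for Gli1, -0.21 to 0.59 for Gli2, -0.69 to 0.11 for Gli3, -0.88 to 0.28 for Ptch1. In cluster 4 they were -0.56 to 0.058 for Gas1, -0.97 to 0.041 for Gli1, -0.48 to 1.01 for Hhip, -0.44 to 0.56 for Ptch1. In cluster 6 they were -0.37 to 0.076 for Boc, -1.74 to 0.57 for Gas1, -0.12 to 0.10 for Gli3, -0.63 to 0.94 for Hhip, -0.41 to 0.59 for Ptch1. In cluster 8 they were -0.53 to 1.31 for Boc, -2.10 to 1.36 for Gli1, -0.40 to 0.15 for Gli3, -1.52 to 0.49 for Hhip, -0.33 to 0.48 for Ptch1, -0.42 to 0.39 for Shh. The cause of these changes was not tested. Libraries thinned to 1 depth gave 54 genes over all sorted cells, against 49.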
